A study of Mus musculus with 12 samples.

Results

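The genes described here are catalogued long noncoding RNA (lncRNA) genes that lie on top of a protein-coding gene and are read in the same direction. They were found in the deposited annotation (mouse build mm9) as genes with a catalogue number, n and digits, whose span overlaps the span of a protein_coding gene on the same strand. There were 20010 of them among 36991 numbered lncRNA genes and 57683 genes in all. In 10343 an exon shared at least 1 base with an exon of the coding gene, and 9667 lay in its introns without a shared exon base. The coding gene with the most shared exon bases, and among intronic genes the one with the largest overlap, is called the partner. The rule used positions alone and no measured value.

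An lncRNA is an RNA without a recognised protein product. Where its gene shares strand and span with a coding gene, the catalogue entry can stand for a separate short transcript inside an intron, a longer 3′ or 5′ end of the coding transcript, or a spliced variant of it. Reads of unstranded libraries carry no mark of the transcript they came from. A read in an intron counts for the lncRNA gene annotated there whether it came from that RNA or from unspliced RNA of the partner. Where a coding gene of the opposite strand lies there too, its RNA is a further possible source. These sources cannot be told apart. Mature microRNAs, the short RNAs that bring silencing proteins to matching messenger RNAs through their seed (bases 2 to 8), are cut from the introns or exons of such transcripts.

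Hearts of 3 wild-type female FVB/NJ mice aged 12 weeks were dissociated with collagenase, and cardiomyocytes and nonmyocytes were parted by gravity. RNA of the cardiomyocytes was prepared directly, while nonmyocytes were first cultured until the dish held chiefly fibroblasts, so that an effect of cell type and one of culture cannot be told apart. The protocol gives 2 passages and the cell type label a P1 culture, and no genotype or treatment differs between the groups. Each fraction gave 3 libraries of polyadenylated RNA and 3 of small RNA. Cardiomyocyte libraries of polyadenylated RNA held from 5956831 (library 1) to 26851830 counts, and nonmyocyte libraries from 8126422 to 10792544. Small RNA libraries 1, 2 and 3 held 412739, 3062706 and 6311625 counts in cardiomyocytes and 1255622, 549924 and 83170 in nonmyocytes. Levels are CPM, counts scaled to library size with TMM factors, given as mean ± SD (n = 3) with cardiomyocytes first. Log2 fold changes are cardiomyocyte over nonmyocyte, with their standard error. Summed over 10 cardiomyocyte markers the level was 171102 to 220766 CPM in cardiomyocytes and 1162 to 1560 CPM in nonmyocytes, and over 10 fibroblast markers 316 to 460 against 13498 to 14328 CPM. Endothelial markers summed to 696 to 1341 against 743 to 806 CPM, with 9 of 11 tested genes higher in cardiomyocytes, macrophage and leukocyte markers to 83.1 to 95.5 against 97.0 to 108.5 CPM, and smooth muscle and pericyte markers to 6106 to 7115 against 6419 to 8022 CPM. Red blood cell markers summed to 12.8 to 605 CPM in cardiomyocytes and 1.63 to 3.96 CPM in nonmyocytes. The part of these other cell types in the results below was not tested.

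Sequences were at hand for microRNAs and promoters, from RefSeq (GRCm38.p6), and not for the numbered lncRNA genes. The small RNA table listed 57 microRNA arms, out of 782 of the sense strand, inside 40 of the overlapping lncRNA genes. Those shown here are the 10 arms with at least 10000 reads and a microRNA name, and all 10 were matched. A further 3 arms with that many reads carry clone names and were not matched to a sequence. They are CT009696.1-5p (54953 reads), CT025619.1-5p (22517) and CT025619.1-3p (17728), in introns of lncRNA genes over 2610203C20Rik. Capitals mark the seed.

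miR-22-3p: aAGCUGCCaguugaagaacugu
let-7c-5p: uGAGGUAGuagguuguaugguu
let-7a-5p: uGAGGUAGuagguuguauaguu
let-7d-5p: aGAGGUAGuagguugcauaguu
miR-10b-5p: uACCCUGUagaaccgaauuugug
miR-125b-5p: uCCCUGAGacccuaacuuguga
miR-99a-5p: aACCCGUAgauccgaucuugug
miR-423-5p: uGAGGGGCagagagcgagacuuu
miR-423-3p: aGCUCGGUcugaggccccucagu
miR-103-3p: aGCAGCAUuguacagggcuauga

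The 3 let-7 arms share the seed GAGGUAG, and the other 7 arms have a seed each. miR-22-3p and both miR-423 arms lie in an exon of an overlapping lncRNA gene, and the other 7 lie in introns. Of the 40 lncRNA genes 27 had 0 counts and 4 reached the test. Of all 20010 overlapping lncRNA genes 51.3% had a count and 7.22% reached the test.

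Among the lncRNA genes named by the rule below, 5 start upstream of their partner and end inside it, and RefSeq promoter windows were listed for 3 of those partners. The windows are shown because the lncRNA gene runs across the partner's annotated start in mm9. RefSeq starts were not converted to mm9, so a window need not lie at the start annotated there. Its place relative to the lncRNA gene was not tested. Each holds the 250 bases before the RefSeq start, 5′ to 3′ on the gene's strand, for Slit2 at chr5:47982905-47983154 (plus strand), AU022252 at chr4:119232725-119232974 (minus strand) and Papola at chr12:105784447-105784696 (plus strand). Capitals mark the motif TATAAA, searched on both strands.

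Slit2: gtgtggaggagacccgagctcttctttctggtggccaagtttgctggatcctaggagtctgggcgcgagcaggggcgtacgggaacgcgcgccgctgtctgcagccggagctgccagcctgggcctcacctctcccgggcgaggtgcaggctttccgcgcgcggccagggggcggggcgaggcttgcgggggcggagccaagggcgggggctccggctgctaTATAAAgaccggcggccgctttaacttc
AU022252: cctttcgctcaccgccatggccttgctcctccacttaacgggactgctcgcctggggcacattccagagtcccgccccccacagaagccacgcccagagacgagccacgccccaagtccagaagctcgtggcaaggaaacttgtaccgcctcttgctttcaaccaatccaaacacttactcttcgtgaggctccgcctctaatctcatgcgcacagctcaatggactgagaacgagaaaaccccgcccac
Papola: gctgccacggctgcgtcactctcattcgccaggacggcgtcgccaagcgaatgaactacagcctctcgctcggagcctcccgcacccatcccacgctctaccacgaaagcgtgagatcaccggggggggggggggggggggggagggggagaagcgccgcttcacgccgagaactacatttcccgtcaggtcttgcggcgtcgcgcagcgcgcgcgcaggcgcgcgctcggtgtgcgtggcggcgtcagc

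The Slit2 window holds TATAAA once, beginning 28 bases before the RefSeq start, and these letters are in neither of the others. Among 32851 windows of the same length 7.59% hold the motif on the gene's strand and 12.4% on either strand. The dinucleotide CG occurs 25 times in the Slit2 window, 15 times in that of AU022252 and 34 times in that of Papola, against a median of 6. In mm9 n271562 starts 1617 bases before Slit2, n267733 starts 1004 bases before AU022252, and n293692 starts 14819 bases before Papola.

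In structure the overlapping lncRNA genes were mostly short and unspliced. A single exon made up 55.2% of those that share exon bases and 83.3% of the intronic ones, with median exon lengths of 1853 and 2103 bases. Of the 10343 that share exon bases, 7695 lay inside the partner, 1265 ran past its 3′ end, 846 past its 5′ end, and 537 spanned it. Coding sequence was part of the shared bases in 6272, and 2749 shared bases of the 3′ untranslated side alone. Partners numbered 7942, and genes with long introns held many of them, with 45 over Nrxn3, a synaptic adhesion protein, and 35 each over Zbtb20, a zinc finger repressor, and Pde4d, a cAMP phosphodiesterase. A coding gene of the opposite strand also overlapped 1035 of the lncRNA genes, 815 sharing exon bases and 220 intronic. Among genes described below this holds for n278360, n289754, n295415, n267733, n276540 and n266449. The part of the opposite-strand gene in their counts was not tested.

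Counts were lost where nearly all exon bases of such a gene belong to other genes as well. Of the 3600 with every exon base inside other genes none had a count, which allows a share of up to 0.102% (exact binomial, 95%). Of 2730 with over 90% but not all in other genes, 9.27% had a count. Of 1444 with over 50% to 90% it was 70.4%, and of 2445 with over 10% to 50% it was 79.5%, and of 7894 with none it was 69.2%. The same held beyond these genes, since none of 6532 fully covered genes of any kind had a count, 370 coding genes and 278 genes covered by the opposite strand alone among them. Counts of an lncRNA gene and of its partner in these tables therefore come from different bases.

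**Figure D1:**
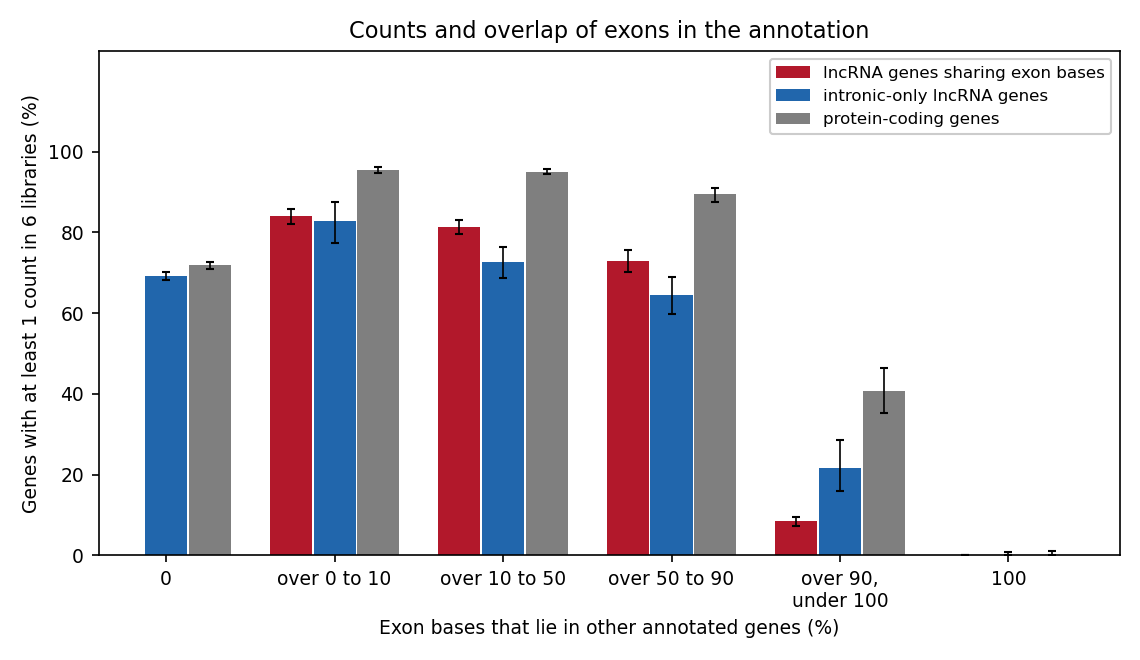
Share of genes with at least 1 count in the 6 libraries (y axis, %) by the share of their exon bases inside other annotated genes (x axis, %), for lncRNA genes that share exon bases with a same-strand coding gene (red), intronic-only ones (blue) and protein-coding genes (grey). Bars are shares with exact 95% binomial intervals. The bars stand at 64.5% or above up to a share of 90%, and at 0 at 100%. No gene sharing exon bases falls in the first group.

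Coding genes of the heart were among those without counts. Exons of overlapping lncRNA genes covered 286 partners completely, and all 286 had 0 counts in the 6 libraries. Atp2a2, the calcium pump that refills the sarcoplasmic reticulum of cardiomyocytes, was one of them, and Sln, a small inhibitor of such pumps, was another. Of the partners covered over 90% but not fully, 37.3% of 268 had a count, against 96.4% of 1601 covered up to 10%.

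Over Atp2a2 lay n414332 (chr5:122903521-122952234, minus strand), which follows the whole pump gene in 21 exons and has 79 of its 5746 exon bases to itself. It held 59, 631 and 363 counts in cardiomyocytes and 8, 3 and 16 in nonmyocytes. The lowest cardiomyocyte level, 11.4 CPM, was above the highest nonmyocyte level, 1.24 CPM, and the log2 fold change was 4.82 ± 0.53 (adjusted p = 3.6e-06 by the edgeR quasi-likelihood test). Another gene there, n285278, a single exon with 2032 unshared bases, held 33, 44 and 51 counts against 1, 0 and 0. The remaining one over Atp2a2, n281240, had 0 counts and 13 unshared bases.

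Of the heart and cell type genes listed for this work, 17 had at least 50% of their exon bases under such lncRNA genes. Cdt1, which licenses DNA replication, had 0 counts, and the matrix genes Nid2 (nidogen) and Eln (elastin) had 1 each. The endothelial marker Pecam1 had 5 counts, while n288697 over it held 19, 71 and 102 counts in cardiomyocytes and 12, 12 and 7 in nonmyocytes. In contrast, Myoz2, a Z-disc protein covered for 71.0%, still held 78856 counts and Cpt1b, the fatty acid gate of muscle mitochondria, 1935 at 94.8%. Values of Cdt1, Nid2, Eln, Pecam1 and Cpt1b in this table are uncertain, since few of their bases were counted.

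A total of 10270 overlapping lncRNA genes had a count and 1444 passed the filter on low counts, 772 that share exon bases and 672 intronic ones. The filter asks for 0.951 CPM in enough libraries, and 201 of the 1444 reached it in cardiomyocytes alone and 250 in nonmyocytes alone, so that many of the tested genes had to differ. They were faint, with a median of 1.70 CPM against 14.4 CPM over all tested genes, and together took 0.695% to 1.06% of the counts of a cardiomyocyte library and 0.776% to 0.872% of those of a nonmyocyte library.

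Higher in cardiomyocytes were 420 of the 1444 (29.1%) and lower 254 (17.6%), against 31.6% and 32.1% of all 14734 genes tested and 63.7% in either direction (edgeR quasi-likelihood, adjusted p under 0.05). The 201 genes that reached the filter in cardiomyocytes alone gave 199 of the higher calls. The 250 that reached it in nonmyocytes alone gave 183 of the lower calls. The 993 that reached it in both gave 292 calls. The counts and shares of calls given here therefore rest in part on the filter. In 410 of the 420 and 253 of the 254 the libraries of the fractions did not overlap. Over all genes tested this held for 4522 of 4657 higher and 4701 of 4732 lower. The highest genes named below were picked from called genes without overlap. Among those that share exon bases 227 were higher and 146 lower, and among intronic ones 193 and 108. In bulk RNA, fewer cells of a type and less RNA per cell cannot be told apart. Of the called overlapping lncRNA genes 62.3% were higher in cardiomyocytes, against 49.6% of all called genes. Scaling by library totals alone takes the median log2 fold change of all genes from -0.02 to -0.70. Then 305 overlapping lncRNA genes were higher and 388 lower, or 44.0% higher, against 30.9% of all called genes. Without cardiomyocyte library 1, the shallowest, 473 were higher and 386 lower, or 55.1% higher against 50.8%.

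Among genes sharing exon bases, the highest in cardiomyocytes was n297276 (chr1:36587038-36588149, minus strand), which prolongs the 3′ end of Ankrd23, an ankyrin repeat protein of the titin spring. It held 628, 546 and 442 CPM in cardiomyocytes and 5.82, 4.93 and 4.42 CPM in nonmyocytes. The fractions lay far apart, with a log2 fold change of 6.73 ± 0.23 (adjusted p = 1.2e-10 by the edgeR quasi-likelihood test), and Ankrd23 itself had 6.68 ± 0.23. Next came n268795 at the 3′ end of Tns1, an actin-binding protein of focal adhesions, with 350 ± 52.9 against 161.1 ± 9.13 CPM. In Pde4dip, whose product myomegalin anchors enzymes at the Golgi and centrosome, n290132 held 191.6 ± 71.9 against 2.29 ± 1.33 CPM. Pde4dip exons hold 4.56% of its bases and exons of any gene 92.0%. At the 3′ end of Lrtm1 n278360 held 181.5 ± 43.0 against 1.27 ± 0.43 CPM.

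Steep rises were found over Ckmt2 and Art1. In Ckmt2, the mitochondrial creatine kinase of muscle, n269887 held 71.5, 33.9 and 31.0 CPM in cardiomyocytes and 0.299, 0.0966 and 0 CPM in nonmyocytes. The groups did not overlap, cardiomyocyte library 1 was the highest, and the log2 fold change was 8.27 ± 0.59 (adjusted p = 5.7e-08 by the edgeR quasi-likelihood test). It rests on 5 nonmyocyte counts and was 9.84 without nonmyocyte library 1, which held 4 of them. In Art1, an enzyme of the muscle cell surface, n295415 held 41, 177 and 281 counts against 0, 1 and 0. Its level was 405 times higher in cardiomyocytes with a 95% counting interval of 72.4 to 16042.

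Lower in cardiomyocytes were stretches at the 3′ ends of several coding genes. n284898 (chr17:26789896-26793874, plus strand), at the end of Ergic1, a protein of the transport between endoplasmic reticulum and Golgi, held 29.8, 39.6 and 37.5 CPM in cardiomyocytes and 138.8, 116.5 and 128.4 CPM in nonmyocytes. The groups did not overlap and the log2 fold change was -1.84 ± 0.18 (adjusted p = 1.02e-06 by the edgeR quasi-likelihood test). At the end of Fgf2, a growth factor of fibroblasts, n289754 held 11.4, 10.7 and 16.4 CPM against 50.3, 68.3 and 70.3 CPM, which per kb of exon was 3.33 times the level of Fgf2 itself and per unshared kb 2.93 times. n294566 behind Kctd17 held 5.29 ± 0.785 against 55.2 ± 19.2 CPM, and n266681 behind Ctdspl, a phosphatase of RNA polymerase, 8.71 ± 0.538 against 54.5 ± 9.66 CPM.

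The steepest falls among them lay over Slit2, Osr1 and 2610203C20Rik. n271562 (chr5:48374415-48376906, plus strand) starts before Slit2, the secreted guidance ligand whose RefSeq promoter window is shown above. n271562 held 0, 0.984 and 0.630 CPM in cardiomyocytes and 25.8, 47.5 and 54.0 CPM in nonmyocytes. Every nonmyocyte library was above every cardiomyocyte library, and the log2 fold change of -5.95 ± 0.48 (adjusted p = 1.75e-07 by the edgeR quasi-likelihood test) stood beside -5.97 ± 0.39 for Slit2. n297235 behind Osr1, a transcription factor of embryonic mesoderm, held 1.23 ± 1.62 against 27.6 ± 9.94 CPM. n286534, at the end of the gene 2610203C20Rik, held 0.121 ± 0.209 against 7.02 ± 2.47 CPM.

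Among intronic lncRNA genes higher in cardiomyocytes the highest lay in Zbtb20. n413824 (chr16:42955692-42956192, plus strand) in an intron of Zbtb20 held 310, 366 and 260.0 CPM in cardiomyocytes and 67.3, 70.3 and 57.8 CPM in nonmyocytes. The groups did not overlap, the log2 fold change was 2.26 ± 0.18 (adjusted p = 1.57e-07 by the edgeR quasi-likelihood test), and the level was 20.2 times that of Zbtb20 per kb of exon and 12.7 times per kb of exon shared with no other gene.

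Steep intronic rises lay in genes of cell contacts and calcium entry and release. n277520 in Lmo7, a protein of adherens junctions, held 40.5 ± 18.9 against 0.224 ± 0.071 CPM. n265714 in Ryr2, the calcium release channel of the heart, held 42.8, 13.4 and 18.1 CPM in cardiomyocytes and 0, 0.387 and 0.078 CPM in nonmyocytes. n288572 in Cacna1c, the pore of the L-type calcium channel, held 51.7, 8.60 and 10.9 CPM against 1 count in all in nonmyocyte library 2, a level 534 times higher with a 95% counting interval of 95.5 to 21112. Its log2 fold change of 9.30 went to 8.12 without cardiomyocyte library 1 and to 11.46 without nonmyocyte library 2, and that of n265714 from 7.36 to 9.10 without nonmyocyte library 2. In these 3 genes cardiomyocyte library 1 was the highest of its group. Over all intronic lncRNA genes that library also stood apart, with 0.437% of its counts in them against 0.238% and 0.295% in cardiomyocyte libraries 2 and 3.

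Lower in cardiomyocytes was the intronic gene n279722 (chr8:109963030-109963479, plus strand) in Wwp2, a ubiquitin ligase. It held 81.0, 113 and 81.2 CPM in cardiomyocytes and 466, 353 and 299.6 CPM in nonmyocytes. The groups did not overlap, whereas Wwp2 itself was not called, with 27.0 ± 5.81 against 34.7 ± 4.55 CPM (adjusted p = 0.178 by the edgeR quasi-likelihood test), and the fold changes of the pair differed by -1.64 ± 0.46 log2 (interaction adjusted p = 0.0393). In Mxra7, a matrix remodelling associated gene, n278706 held 2.22 ± 1.75 against 45.9 ± 9.54 CPM, and in Ston1, an endocytosis protein, n287677 held 1.15 ± 0.263 against 35.7 ± 5.59 CPM. At 5 CPM or more the steepest fall was that of n277879 in Dzip1, a protein of the primary cilium, with 1, 1 and 1 counts against 70, 99 and 87, a level 105 times higher in nonmyocytes with a 95% counting interval of 35.5 to 513. n273439, in an intron of 2610203C20Rik, held 0.237 ± 0.262 against 11.9 ± 2.09 CPM.

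**Figure D2:**
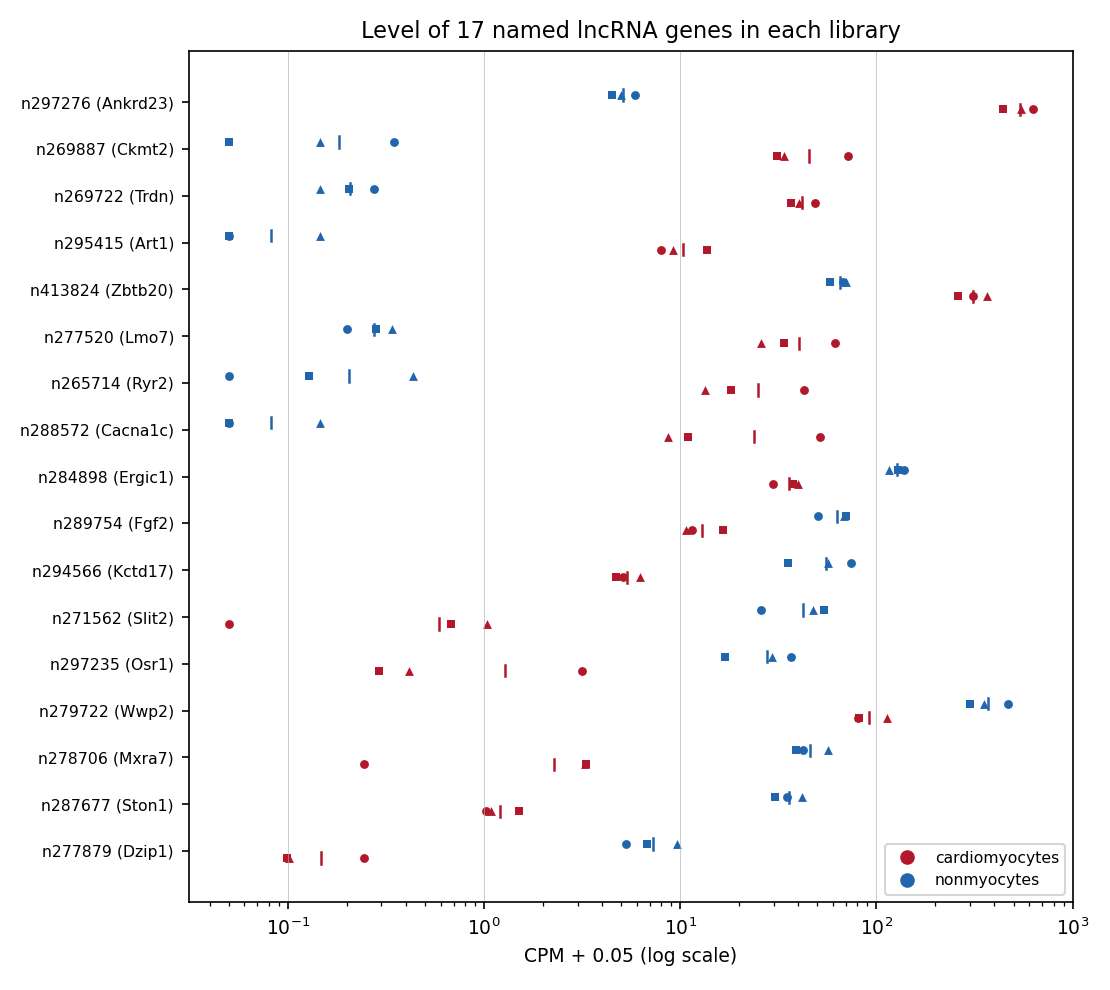
Level in each library (x axis, CPM + 0.05 on a log scale) of 17 of the named lncRNA genes (y axis, with the coding partner in brackets) in cardiomyocytes (red) and nonmyocytes (blue). Circles, triangles and squares are libraries 1, 2 and 3 and short lines are means. In all 17 the fractions do not overlap, as in n269887 at 31.0 to 71.5 against 0 to 0.299 CPM. For genes named as the highest, the rule of choice required this.

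The lncRNA genes were also grouped by the job of the partner. Of 44 genes of the sarcomere and Z-disc, 20 had such an lncRNA gene on them, 46 in all, of which 15 were tested, 14 were higher in cardiomyocytes and none lower, with a median log2 fold change of 5.03. The highest were n293418 in Tpm1, tropomyosin, at 21.1 ± 9.81 against 5.91 ± 1.65 CPM and n293767 in Nexn, a Z-disc protein, at 18.5 ± 2.97 against 0.83 ± 0.316 CPM. Over 24 of the 43 genes of calcium handling and ion channels lay 136, of which 38 were tested, 35 were higher and none lower, with a median of 5.67. Here 32 of the 38 were intronic. The highest in CPM was n269722 in Trdn, triadin, which ties the calcium store to Ryr2, at 48.4, 40.4 and 36.7 CPM against 0.224, 0.097 and 0.155 CPM. For comparison the median over all tested overlapping lncRNA genes was 0.34 and over all genes -0.02.

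Over 27 of the 68 genes of mitochondrial energy metabolism lay 42 such lncRNA genes. Of these 16 were tested, and 13 were higher and none lower, with a median of 4.44. Next to n269887 in Ckmt2, n276968 at the start of Lpl, the lipase that frees fatty acids from blood lipids, held 73.4 ± 26.1 against 0.537 ± 0.437 CPM. Of 71 over 35 of the 60 extracellular matrix genes 7 were tested, and all 7 were lower in cardiomyocytes, with a median of -5.09. Without nonmyocyte library 2 or 3 a single one was called higher. The 7 lay over Thbs2, Sparc, Fstl1, Loxl2, Tnc, Col5a2 and Fn1, all matrix or secreted proteins. n293373 at the 3′ end of Thbs2, a thrombospondin, held 0.194, 0.311 and 0.436 CPM in cardiomyocytes and 10.3, 12.2 and 12.7 CPM in nonmyocytes, and n272914 in Loxl2, a collagen cross-linking enzyme, 0.0841 ± 0.0785 against 6.23 ± 2.38 CPM. Over 17 of the 48 cell division genes lay 23 and none was tested. The highest was n272856 in Smc2, a condensin, at 0.116 ± 0.103 against 0.835 ± 0.575 CPM. Next came n284781 past the 3′ end of Cenpa, the centromere histone, at 0.201 ± 0.174 against 0.621 ± 0.555 CPM. The coding genes of the lists, with or without such an lncRNA gene on them, moved in the same directions, for of those tested 42 of 43, 38 of 40 and 66 of 67 in the first 3 lists were higher and 50 of 57 matrix genes lower. Fibroblast and cardiomyocyte markers parted the fractions in the same direction, and their part in these counts was not tested.

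lncRNA gene and partner were compared directly, to ask whether the gene on top changed like the gene beneath. Both passed the filter in 1309 pairs over 1051 partners, so pairs that share a partner are not independent. Both genes were called in 526 pairs, and in 504 of them (95.8%, exact 95% interval 93.7 to 97.4) they moved the same way, 315 up and 189 down in cardiomyocytes. The share was 96.3% of 271 among those sharing exon bases and 95.3% of 255 among intronic ones. Over opposite-strand lncRNA genes it was 90.5% of 116 with a shared exon (interval 83.7 to 95.2) and 91.1% of 45 in introns (78.8 to 97.5). For lncRNA genes near a coding gene without overlap it was 91.9% of 248. Between intergenic ones, at least 10000 bases from any coding gene, and the nearest coding gene it was 85.2% of 61 (73.8 to 93.0). Over all pairs of an lncRNA gene and a coding gene, the overlapping ones included, it was 93.4% of 996. Differences between these shares were not tested.

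The size of the 2 fold changes was compared by an interaction test over all 2418 tested pairs of an lncRNA gene and a coding gene. It called 113 of the 1309 overlapping pairs (8.63%), 63 with the lncRNA gene higher in cardiomyocytes against its partner and 50 lower, beside 14.0% of all pairs, 8.02% higher and 6.00% lower (edgeR quasi-likelihood interaction, adjusted p under 0.05). Among those sharing exon bases 54 of 668 pairs were called and among intronic ones 59 of 641. The count moved with single libraries, to 170 without cardiomyocyte library 1, 67 without cardiomyocyte library 2, 56 without cardiomyocyte library 3, 64 without nonmyocyte library 2 and 66 without nonmyocyte library 3. A difference not called does not show that 2 genes changed alike.

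**Figure D3:**
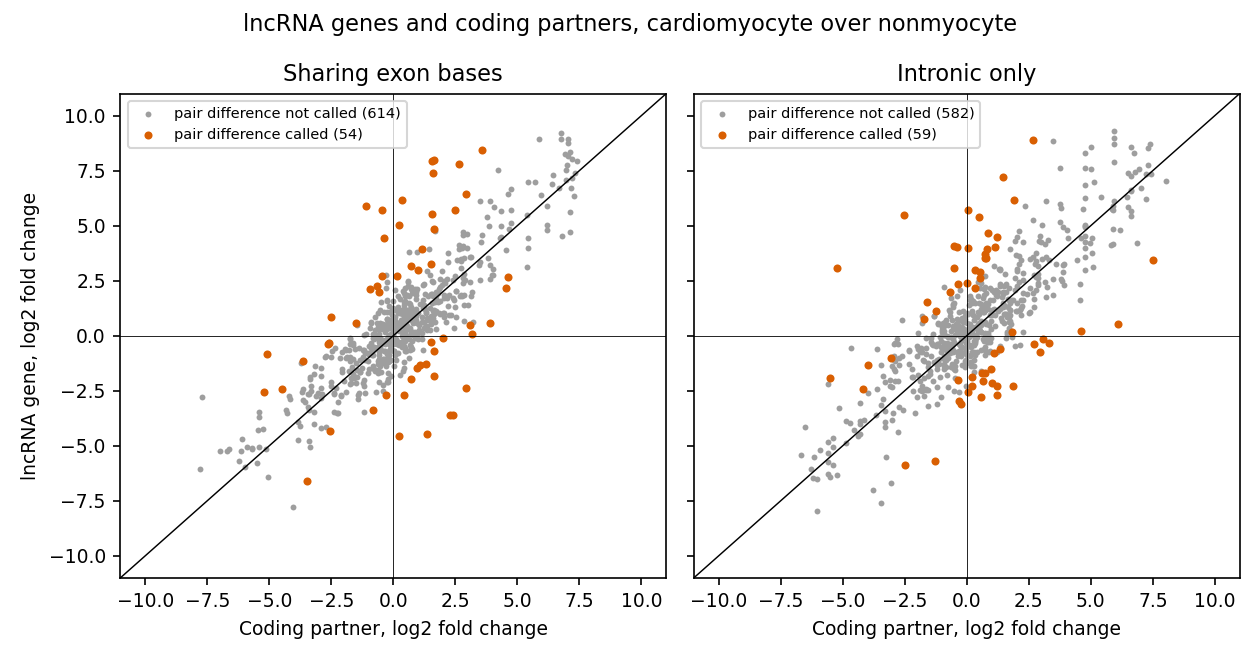
Log2 fold change, cardiomyocyte over nonmyocyte, of the coding partner (x axis) and of the lncRNA gene on it (y axis) for 668 pairs that share exon bases (left) and 641 intronic-only pairs (right). Orange points are the 54 and 59 pairs whose fold changes differ by the interaction test, and the diagonal marks equal fold changes.

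In 22 pairs both genes were called, moved in opposite directions and differed by the interaction test. In 15 of them the lncRNA gene fell in cardiomyocytes while the partner rose. n285738 (chr3:122809520-122812448, minus strand), inside Synpo2, an actin-binding protein of the Z-disc, held 0, 0.673 and 0.339 CPM in cardiomyocytes and 5.52, 4.93 and 4.89 CPM in nonmyocytes, while Synpo2 held 272, 374 and 371 against 73.1, 61.2 and 73.9 CPM. Neither gene's groups overlapped, and the fold changes differed by -6.05 ± 0.64 log2 (adjusted p = 0.000273 by the edgeR quasi-likelihood test). At the 3′ end of Vamp1, a vesicle fusion protein, n266699 held 0.134 ± 0.116 against 2.13 ± 0.362 CPM and Vamp1 10.4 ± 1.31 against 1.95 ± 0.423 CPM. In Eif4e3, a cap-binding protein, n271611 held 1.74, 1.09 and 1.07 against 7.24, 5.22 and 6.91 CPM and Eif4e3 57.8 ± 8.05 against 7.44 ± 2.86 CPM.

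Among the other partners that rose while the lncRNA gene fell were several enzymes. n267733, which starts before AU022252, held 0, 2 and 0 counts against 15, 12 and 16, while AU022252 held 21.7 ± 2.63 against 8.42 ± 1.12 CPM. Both intronic genes in Gstz1, an enzyme of tyrosine breakdown, fell, with n290143 at 0.396 ± 0.413 against 3.07 ± 1.06 CPM and n279005 at 0.232 ± 0.219 against 1.44 ± 0.0761 CPM, as Gstz1 held 61.0 ± 3.52 against 26.6 ± 2.82 CPM. In Uck2, a uridine kinase, n272841 held 2.13, 2.07 and 1.94 against 14.8, 17.3 and 10.4 CPM, and Uck2 43.0 ± 6.19 against 28.6 ± 1.89 CPM. The remaining ones were n294296 in Nfs1, n276540 before 2810002N01Rik, n290479 in Clic4, and, outside the rule for named genes, those over Nudcd3, Atp6v0a1, Ccni, 2010111I01Rik and Fbxw4.

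In 7 pairs the lncRNA gene rose and the partner fell. n266449 (chr7:137778727-137779901, minus strand), in an intron of the growth factor receptor gene Fgfr2, held 3.68, 1.71 and 5.96 CPM in cardiomyocytes and 0.448, 0.580 and 0.310 CPM in nonmyocytes. A coding gene of the opposite strand also overlaps n266449, and its part in these counts was not tested. The span annotated for Fgfr2 is long, at chr7:137305965-140315033. Fgfr2 held 0.387, 0.829 and 0.145 against 20.1, 16.7 and 17.1 CPM, so that the order of the fractions was turned around, and the fold changes differed by 8.26 ± 1.04 log2 (adjusted p = 0.000752 by the edgeR quasi-likelihood test). In Picalm, a clathrin assembly protein, n281828 held 5.01 ± 2.58 against 1.22 ± 0.912 CPM and Picalm 63.7 ± 13.5 against 94.9 ± 21.5 CPM, where the libraries overlapped. In Tmem30a, a flippase subunit, n289328 held 3.45 ± 1.99 against 0.729 ± 0.417 CPM, and the other 4 lay over Raph1, Arhgef10, Mib1 and Pcdhga11. Most of these lncRNA genes were faint. Scaled by library totals alone 19 of the 22 pairs kept opposite signs, Uck2, Clic4 and Fbxw4 being the partners that turned, and 13 kept both calls as well. With 1 library left out all 22 kept opposite signs, and between 8 and 18 kept both calls.

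**Figure D4:**
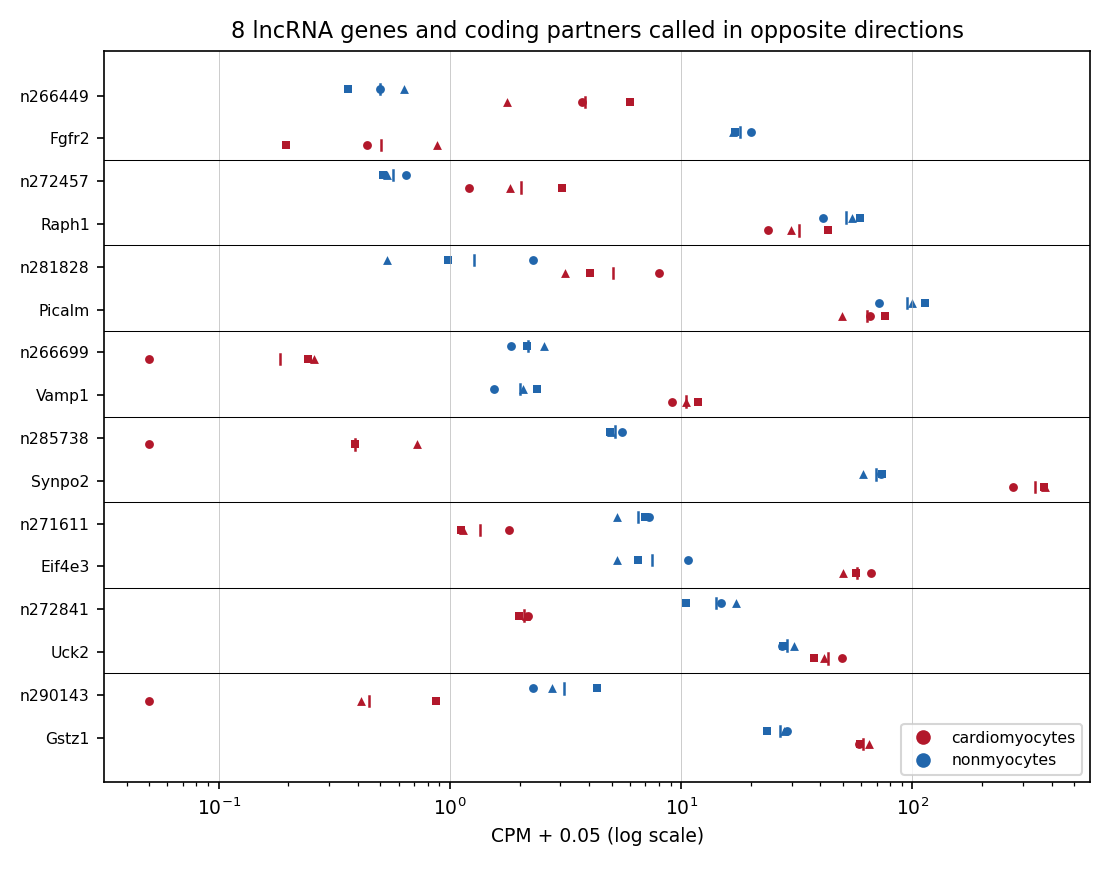
Level in each library (x axis, CPM + 0.05 on a log scale) of 8 lncRNA genes, each above its coding partner (y axis), in cardiomyocytes (red) and nonmyocytes (blue), with circles, triangles and squares for libraries 1, 2 and 3 and lines for means. In the upper 3 pairs the lncRNA gene is higher in cardiomyocytes and the partner lower, as in n266449 at 1.71 to 5.96 against 0.310 to 0.580 CPM, though the libraries of Raph1 and Picalm overlap. In the other 5 pairs the order is the reverse, without overlap.

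Set against the partner per kb of exon, most overlapping lncRNA genes were faint, and those past the 3′ end of the partner were the least so. The median level was 10.3% of the partner's (quartiles 3.38% and 33.4%) for 668 genes sharing exon bases and 5.38% (2.22% and 15.1%) for 641 intronic ones. Per kb of exon bases shared with no other gene, from which the counts come, the medians were 9.71% and 4.33%. On that scale the 188 genes running past the partner's 3′ end stood at 45.4% (18.4% and 95.8%), the 389 inside it at 5.74% (2.06% and 14.4%) and the 87 past its 5′ end at 7.34% (2.34% and 28.1%). Opposite-strand intronic lncRNA genes stood at 8.58% over 89 pairs and intergenic ones at 23.7% over 135 pairs. In single libraries the median past the 3′ end was 46.3% to 49.7% in cardiomyocytes and 30.8% to 36.0% in nonmyocytes. Differences between classes and fractions were not tested, and the filter on low counts removed the faintest lncRNA genes.

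**Figure D5:**
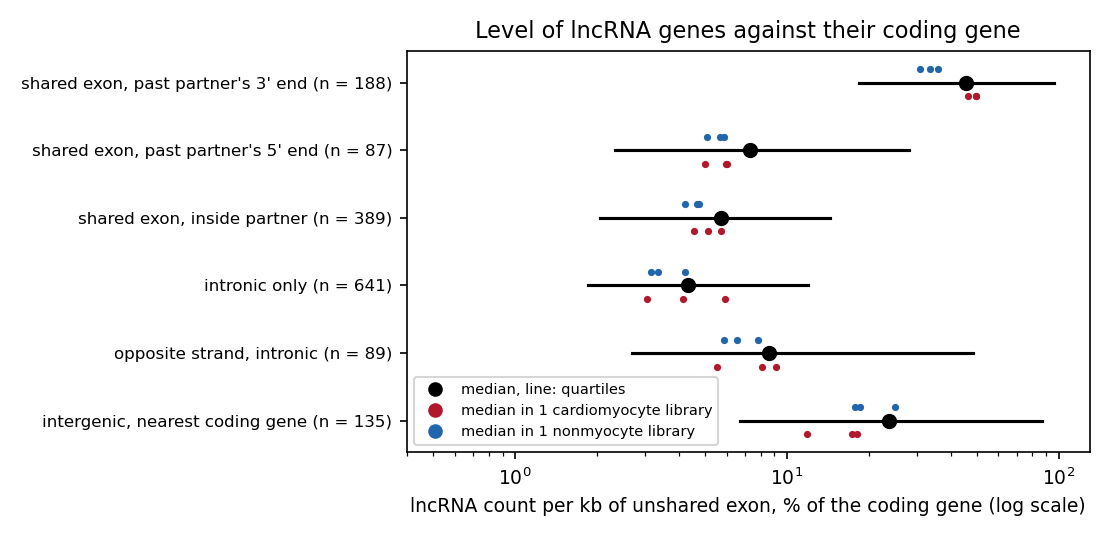
Counts per kb of exon shared with no other gene, as % of the coding gene's (x axis, log scale), by class of lncRNA gene (y axis, number of pairs in brackets). Black points are medians over pairs and lines run between quartiles, and small points are medians in single cardiomyocyte (red) and nonmyocyte (blue) libraries. Genes past the partner's 3′ end stand at 45.4% and those inside it at 5.74%.

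Above the partner per kb of exon stood 58 genes sharing exon bases and 30 intronic ones, and per kb of unshared exon 75 and 20. n293692, which follows Papola, the enzyme that adds poly(A) tails, through 21 exons, held 12.8, 22.3 and 17.7 CPM in cardiomyocytes and 14.8, 20.5 and 20.7 CPM in nonmyocytes and stood 61.2 times above Papola per kb of exon and 320 times per kb of unshared exon. Its groups overlapped and it was not called. n293692 shares 86.1% of its exon bases with Papola, which itself held 87 counts in cardiomyocytes and 72 in nonmyocytes. Of the exon bases of Papola 27.4% lie in other genes, of Ipo7 80.5% and of Sfi1 54.0%. Counts are lost in shared bases, so the ratios given here are not ratios of whole transcripts. n267268 behind Scoc, a Golgi-associated protein, stood 12.6 times above it (13.6 per unshared kb) at 3.78 ± 1.26 against 7.15 ± 1.70 CPM, and n266916 around Ipo7, a nuclear import receptor, 9.18 times (3.37 per unshared kb) at 34.1 ± 3.62 against 22.1 ± 3.90 CPM. Among intronic genes n276017 in Slc24a2, a sodium calcium exchanger, stood 54.3 times above it (39.0 per unshared kb) at 19.0, 23.0 and 25.4 against 7.02, 5.99 and 7.99 CPM, n279722 in Wwp2 48.2 times (41.6), and n417291 in Sfi1, a centrin-binding protein, 29.2 times (13.4) at 43.8 ± 5.62 against 58.2 ± 4.14 CPM.

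Of the lncRNA genes holding microRNAs, n275833 (chr11:75275040-75279418, plus strand), over Tlcd2, carries miR-22 in an exon. It held 33.9, 14.3 and 27.0 CPM in cardiomyocytes and 24.7, 32.7 and 24.1 CPM in nonmyocytes and was not called (adjusted p = 0.711 by the edgeR quasi-likelihood test). miR-22-3p, whose sequence is given above, was at 45116, 132288 and 249648 CPM of the small RNA table in cardiomyocytes and 283458, 229812 and 199459 CPM in nonmyocytes. Both sets of values overlapped between fractions. n283639, whose exon holds miR-423 over Ccdc55, had 25 counts in all while miR-423-5p was at 1720, 577 and 207 CPM in cardiomyocytes and 4717, 7690 and 4316 CPM in nonmyocytes. Over 2810055G20Rik 4 lncRNA genes enclose miR-99a, let-7c and miR-125b and all 4 had 0 counts. Counts can be lost where exon bases lie in other genes, so 0 counts do not show that such RNA is absent. let-7c-5p was at 4267, 6501 and 3702 CPM in cardiomyocytes and 15885, 24749 and 18745 in nonmyocytes, and miR-10b-5p, in an intron of n286827 over Hoxd3, at 2137, 1535 and 2066 against 16109, 17823 and 11134. Reads of let-7c, miR-125b and miR-103 cannot be assigned to 1 locus, since RefSeq lists each sequence at 2. Clone-named arms were not compared with the sequences shown, so others of these may have a further locus too.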

How the data were processed

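Per the labels' protocols, RNA caught on oligo(dT) was fragmented, and the single-end libraries carry no strand mark. Whole-number counts per gene and per microRNA arm were deposited without normalization. The submitters' processing notes name Bowtie, TopHat 1.3.0, HTSeq, DESeq, edgeR and mm9 (NCBIM37). How shared bases were counted is not given in the sources used here.

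Exon overlaps were computed from the deposited annotation. Counts were filtered with filterByExpr (minimum count 10), scaled by TMM and tested over all genes with edgeR 4.0.16 in R 4.3.3, by the robust quasi-likelihood test, two-sided, Benjamini-Hochberg adjusted p under 0.05. Pairs were tested by an interaction of feature and fraction with library as a block, where scaling cancels. On simulated data with log2 folds of 2, 96.0% of changed genes and 84.5% of changed pairs were recovered, with 4.00% and 2.87% false among calls. Simulated levels were those of all tested genes, with a median of 14.4 CPM against 1.70 CPM for the overlapping lncRNA genes. Recovery at the lower level was not measured. The biological coefficient of variation was 0.251. Values of microRNA arms are counts scaled to the total of their small RNA library (CPM), without TMM factors. These totals differ widely in depth. The labels do not tie libraries to hearts, so p-values measure the spread between libraries, which may be partly technical. Intervals cover counting error only.

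Genes, lists and comparisons were chosen with earlier results of these data known. Named are, per set and direction, the 4 highest called genes without overlap, the 3 steepest at 5 CPM or more in each library of the higher fraction, up to 5 opposite pairs at 1 CPM or more, the 3 highest per kb against the partner, and the 2 highest per partner list. Some genes that this rule names are not reported here. Other genes, named for covering list genes or holding microRNAs, were picked with their values in view. The alternatives comprised 2 further scalings, no filter, DESeq2 1.42.0, limma 3.58.1, a test against a 2-fold change, other definitions of overlap and partner, a replicate block, and each library left out. Unshared exon bases as length, and pairs with 50% or more of both genes unshared, were chosen after seeing the data.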

Additional observations from a re-analysis of the deposited data

How the results depend on the processing

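Of 153 recomputed counts and shares 117 stayed within 1.5 times or within the interval of the value reported. Without a filter 883 genes were higher (353 sharing exon bases, 530 intronic), and 169 intronic ones lower. Scaled by library totals 388 were lower, 227 of them sharing exon bases. Against a 2-fold change 168 were lower, 96 of them sharing exon bases. Where sharing meant 50% of the exon bases or more, 27 were higher and 15 lower, and 393 and 239 of the rest. limma on log ratios called 193 pairs, 91 sharing exon bases and 102 intronic. With 1 library left out, genes lower in cardiomyocytes numbered 213 to 386 (94 to 182 intronic), pairs called 56 to 170 (23 to 71 sharing exon bases, 32 to 99 intronic), and same-direction shares from 95.5% to 97.9% (94.3% to 97.6% intronic). Fold changes of single genes kept direction in 1060 of 1070 recomputations and their call in 990. With 1 library left out the log2 fold change changed sign in n293692 (-0.27 to 0.13, at 0.03 and 0.06 in between), Papola (-0.90 to 0.15, with 0.03) and Scoc (-0.61 to 0.22, with 0.16), none of them called, and scaled by library totals in n266916 (-0.048), Uck2 (-0.083) and Clic4 (-0.035). The cause was not tested. Of the called lncRNA genes named by the rule, 20 of 51 moved by over 1.5 times in fold with 1 library left out, and none changed direction. Same-numbered libraries correlated at 0.16, 0.05 and 0.10 in their deviations. Libraries 1 and 3 of the cardiomyocytes correlated best with their own number, and library 2 with nonmyocyte library 3 (0.061 against 0.050). Since not every pair was above 0.1 and the labels leave the tie open, the numbers were not taken to pair the libraries. With the replicate block 402 genes were higher and 232 lower, and 113 pairs were called, and of the 22 opposite pairs 15 kept both calls. A floor of 3 counts is 0.581 CPM in the shallowest library and 0.145 in the deepest, which limits genes of about 1 CPM.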
